A study of Homo sapiens with 4 samples.

Results

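The hnRNPs are abundant nuclear proteins that coat newly made transcripts and help to decide which exons are kept. The tissue splicing regulators bind short sequence motifs near alternative exons and give neurons, muscle and epithelia their own splice patterns. Several of these proteins also act on polyadenylation, RNA stability and translation, and many control their own messages or those of close relatives through exons that lead to decay. The genes described here are RALY, 27 other hnRNP family genes and 12 tissue splicing regulators. They were taken from a list of symbols, and all 40 were found among the 58884 genes of the count tables.

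Total RNA of HCT116, an established human line from a colorectal carcinoma, was extracted and sequenced as 2 control and 2 RALY knockdown libraries. RALY is an hnRNP that binds uridine-rich RNA and is a close relative of HNRNPC. Per the labels' protocols, lentivirus with an shRNA (a hairpin that silences its target) to RALY or with a nonsilencing shRNA was added together with polyprene for 72 h, while another label calls the control cells untreated and numbers the line differently in replicate 2 of each group. The labels therefore do not settle whether control cells received the nonsilencing hairpin, and the labels give neither the number nor the sequence of the hairpins. Whether libraries of 1 group were separate cultures is not stated, so the p-values reflect just the spread among these libraries, which may be technical.

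Library totals ran from 13360007 to 16847520 counts. Levels are given as deposited counts per library, as CPM (counts scaled to 1000000 per library with TMM factors, mean ± SD, n = 2 for each group) and, between genes, as counts per base of gene length. Fold changes are log2, knockdown over control, with the standard error (SE) of edgeR's quasi-likelihood fit across 19686 genes. A gene was called at a Benjamini-Hochberg adjusted p under 0.05. The 8 colorectal epithelial markers looked at were all tested. They ran from VIL1, at 0.82 CPM in control libraries and 0.81 CPM after knockdown, to KRT8, at 189 and 198 CPM. Their summed level was 786 and 681 CPM in control libraries and 697 and 738 CPM after knockdown. Of the 8, CLDN7 and CDX2 fell (log2 fold changes -0.35 and -0.47, adjusted p = 0.0392 and 0.0311 with edgeR), where 13.1% of all tested genes were called as lower. In bulk RNA, fewer cells of a type and less RNA per cell cannot be told apart.

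All 40 genes passed the filter on low counts. After RALY knockdown, 5 of them rose (PTBP2, PTBP3, CELF1, CELF2 and QKI) and 4 fell (RALY, HNRNPM, HNRNPUL2 and TIA1). That is 22.5% of the genes, where 25.6% of all tested genes were called, 12.5% as higher and 13.1% as lower, so the share of calls was near the background. The call of RALY, the targeted gene, followed from the design. Of the other 39 genes, 8 were called (20.5%), 5 as higher and 3 as lower. The median log2 fold change of the 40 genes was -0.01, against 0.01 over all tested genes. The median size of the change, regardless of direction, was 0.10 on the log2 scale, against 0.31 over all tested genes. The CPM ranges of the groups did not overlap in 16 of the 40 genes, and in 63.6% of all tested genes.

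**Figure D1:**
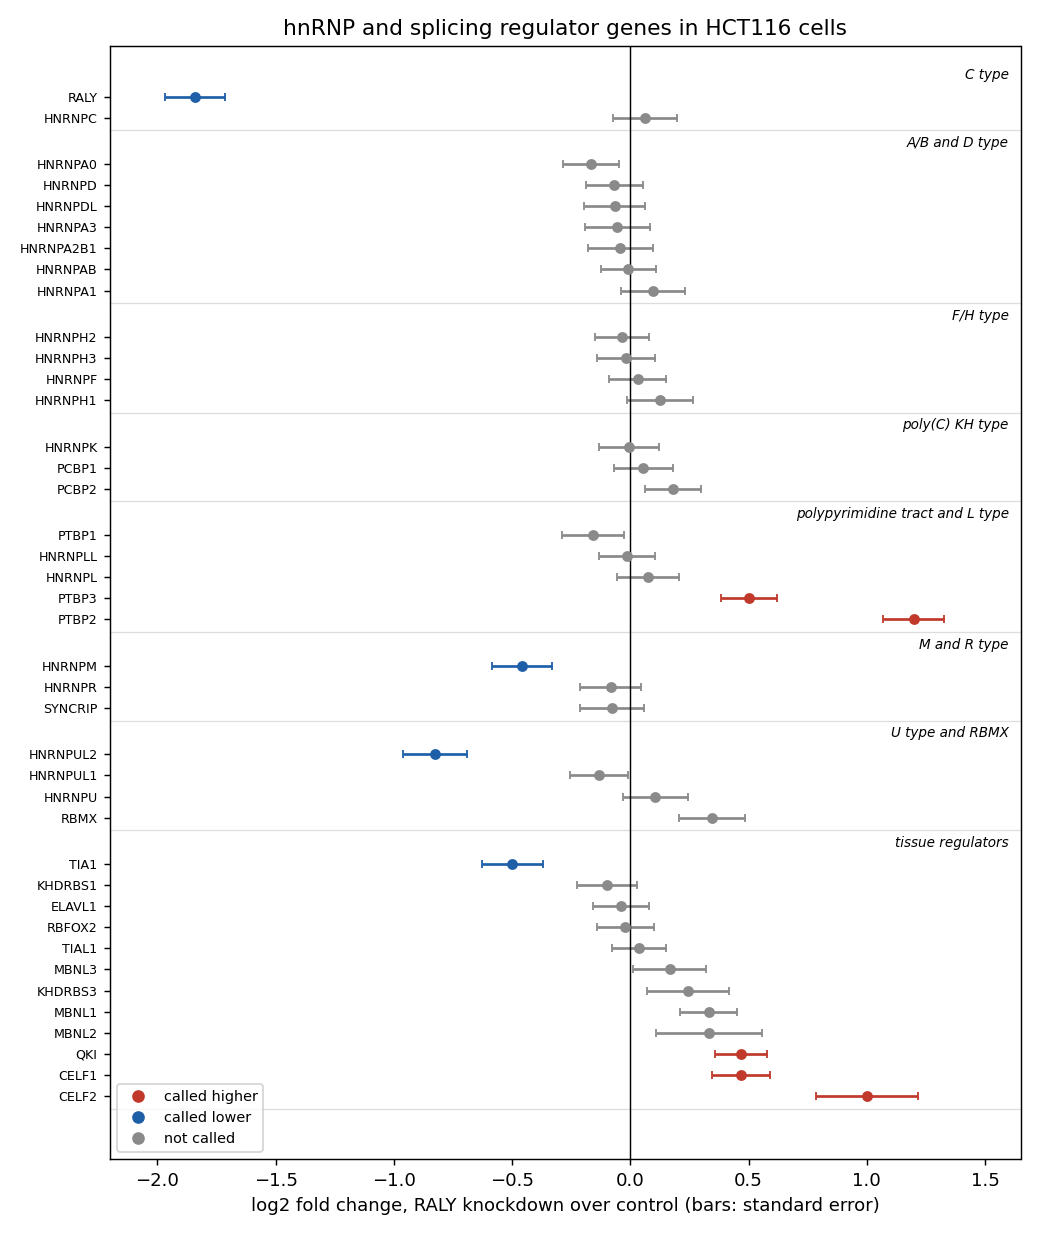
Log2 fold change (knockdown over control, x axis) of each of the 40 genes, grouped by role, with bars of 1 SE (2 libraries a group). RALY sits at -1.84, and the A/B and D, F/H and poly(C) KH groups lie between -0.17 and 0.18 without a called member.

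RALY, the targeted gene (ENSG00000125970, GRCh38 chromosome 20, 33993646 to 34108308, 14 separate exon blocks), stood at 1903 and 2132 counts in control libraries, against 634 and 522 after knockdown. Both knockdown libraries were below both controls, with 134 ± 14.8 against 37.3 ± 3.15 CPM. The log2 fold change was -1.84 (SE 0.13, adjusted p = 6.59e-06 with edgeR). HNRNPC, which forms the core tetramer of hnRNP particles and keeps cryptic Alu exons out of messages, stood at 3472 and 3657 counts in control libraries, against 3957 and 3697 after knockdown. Its groups overlapped on the CPM scale, with 237 ± 36.5 and 248 ± 1.22 CPM, and it was not called (log2 change 0.06, SE 0.13, adjusted p = 0.78 with edgeR). Per base of gene length, RALY stood at 0.533 and 0.567 of the HNRNPC level in the controls and at 0.156 and 0.137 in the knockdown. Per base of the canonical transcript these ratios were 0.279 and 0.297 in controls, and 0.0816 and 0.0719 after knockdown. HNRNPC, unlike RALY, lies in the class whose control counts levelled off, described below, which may shift the ratios. Of the relatives RALYL and HNRNPCL1, RALYL had a single count, in control replicate 1, and HNRNPCL1 had 1 to 3 counts a library, so neither was tested.

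The polypyrimidine tract binding proteins repress exons next to CU-rich sequence, PTBP1 in most dividing cells, PTBP2 mainly in neurons and germ cells, and PTBP3 in blood and other tissues. PTBP1 is known to keep PTBP2 low by causing an exon of its message to be skipped, which leads to decay. PTBP2 had the largest rise of the 40 genes, with 693 and 741 counts in control libraries, against 1857 and 1524 after knockdown. Both knockdown libraries were above both controls, with 47.7 ± 6.83 against 109 ± 9.46 CPM. The log2 fold change was 1.198 (SE 0.13, adjusted p = 9.51e-05 with edgeR). PTBP3 rose from 2485 and 3008 to 4139 and 3780 counts, or from 181 ± 10.1 to 256 ± 2.86 CPM (log2 change 0.50, SE 0.12, adjusted p = 0.00946 with edgeR).

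PTBP1, the most abundant of the 3 per base, stood at 4011 and 4418 counts in control libraries, against 4174 and 3585 after knockdown. Its CPM ranges overlapped between the groups, and it was not called (log2 change -0.16, SE 0.13, adjusted p = 0.419 with edgeR). The PTBP2 level per base was 0.0919 and 0.0892 of that of PTBP1 in control libraries and 0.237 and 0.226 after knockdown. For PTBP3 the same ratio was 0.518 and 0.569 in control libraries and 0.828 and 0.881 after knockdown. Per base of the canonical transcript the ratio to PTBP1 was 0.167 and 0.162 in controls and 0.430 and 0.410 after knockdown for PTBP2, and 0.276 and 0.304 in controls and 0.442 and 0.470 after knockdown for PTBP3. The order of PTBP2 and PTBP3 was the same on both scales, while the distance between them depended on the length used. No test was made of these ratios. PTBP1, unlike PTBP2 and PTBP3, lies in the class whose control counts levelled off, described below, which may also shift the ratios. HNRNPL and HNRNPLL, which bind CA repeats and act on exons of T cell genes such as CD45, had log2 fold changes of 0.07 and -0.01 and were not called.

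The sequences just before the annotated start of PTBP2 and PTBP3, which rose, and of HNRNPUL2 and HNRNPM, which fell, are shown because these 4 genes are the hnRNP family members other than RALY that were called. Each is the 250 bases before the RefSeq start on GRCh38.p14, written 5′ to 3′ on the strand of the gene; the deposited spans of all 4 begin upstream of that start. Capitals mark each GC box (GGGCGG on either strand) and each CCAAT box (CCAAT on either strand).
PTBP2, chr1:96722388-96722637, plus strand: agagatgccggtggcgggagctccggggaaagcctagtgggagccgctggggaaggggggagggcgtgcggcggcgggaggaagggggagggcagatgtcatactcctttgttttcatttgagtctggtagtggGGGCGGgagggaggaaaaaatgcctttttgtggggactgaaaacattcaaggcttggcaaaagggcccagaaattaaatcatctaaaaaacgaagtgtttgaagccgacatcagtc
PTBP3, chr9:112333027-112333276, minus strand: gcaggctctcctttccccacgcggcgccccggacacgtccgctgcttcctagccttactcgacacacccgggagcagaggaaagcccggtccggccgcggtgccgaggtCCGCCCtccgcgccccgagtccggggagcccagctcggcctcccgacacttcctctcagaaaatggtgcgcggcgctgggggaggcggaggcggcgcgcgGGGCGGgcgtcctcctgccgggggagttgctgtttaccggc
HNRNPUL2, chr11:62727458-62727707, minus strand: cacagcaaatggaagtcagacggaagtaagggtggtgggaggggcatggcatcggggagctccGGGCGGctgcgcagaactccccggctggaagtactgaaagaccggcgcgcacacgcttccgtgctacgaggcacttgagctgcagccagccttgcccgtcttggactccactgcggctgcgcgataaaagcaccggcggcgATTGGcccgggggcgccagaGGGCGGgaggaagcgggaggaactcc
HNRNPM, chr19:8444725-8444974, plus strand: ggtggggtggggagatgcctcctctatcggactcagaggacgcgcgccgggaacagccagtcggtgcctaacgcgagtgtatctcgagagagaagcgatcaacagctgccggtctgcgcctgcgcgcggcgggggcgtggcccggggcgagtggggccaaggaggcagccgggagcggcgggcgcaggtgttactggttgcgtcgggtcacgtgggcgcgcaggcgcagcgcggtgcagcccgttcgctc

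The PTBP2 window held 1 GC box, those of PTBP3 and HNRNPUL2 held 2 each, and that of HNRNPM held none. HNRNPUL2 alone of the 4 held a CCAAT box. Of the 40 genes, 35 had an entry in the RefSeq promoter table, and of the called genes QKI alone had none. A GC box stood in 27 of these 35 windows, and in 42.6% of the 35116 windows of the table. Of the 27, 4 were of genes that rose and 3 of genes that fell. Among these, CELF2 and TIA1 were read from RefSeq starts outside their deposited spans. A CCAAT box stood in 15 of 35, and in 32.0% of all windows. None of the 15 was of a gene that rose, but the windows of such genes are too few to set against that share. The AP-1 letters TGACTCA stood in 1 of 35 windows, and the TEAD letters CATTCC in 4, each counted on both strands and none in a called gene, with 4.20% and 11.9% of all windows. These letter counts are descriptions of the windows and not of binding.

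HNRNPUL2 and HNRNPM were the hnRNPs other than RALY that fell. HNRNPUL2, a relative of the scaffold attachment protein HNRNPU with a part in the DNA damage response (GRCh38 chromosome 11, 62712630 to 62727472), stood at 3180 and 3654 counts in control libraries, against 2269 and 1684 after knockdown. Both knockdown libraries were below both controls, with 226 ± 21.0 against 127 ± 20.03 CPM (log2 change -0.83, SE 0.14, adjusted p = 0.00115 with edgeR). Its counts are uncertain, because 44.1% of its exon bases also belong to other annotated genes, chiefly HNRNPUL2-BSCL2, a read-through transcript that joins it to the downstream gene BSCL2. HNRNPUL2-BSCL2 shares all of its exon bases with other genes, yet carried 2917 and 3418 counts in control libraries, against 2379 and 2039 after knockdown (log2 fold change -0.55, edgeR adjusted p = 0.00562), so reads of HNRNPUL2 and of the read-through cannot be told apart. BSCL2 stood at 1039 and 1279 counts in control libraries, against 1226 and 1137 after knockdown (log2 change 0.00, SE 0.11, adjusted p = 0.99 with edgeR). HNRNPUL1, the other paralog, had a log2 fold change of -0.13 and was not called (edgeR adjusted p = 0.47).

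HNRNPM, which binds GU-rich sequence and acts on exons that differ between epithelial and mesenchymal cells, stood at 3131 and 3473 counts in control libraries, against 2689 and 2244 after knockdown. Its CPM were 219 ± 25.7 in the controls and 159 ± 11.9 in the knockdown, with no overlap (log2 change -0.46, SE 0.13, adjusted p = 0.0196 with edgeR). With counts corrected for levelling off, described below, its log2 fold change was -0.72. HNRNPR and SYNCRIP, paired relatives that act on message transport and stability, had log2 fold changes of -0.08 each and were not called.

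**Figure D2:**
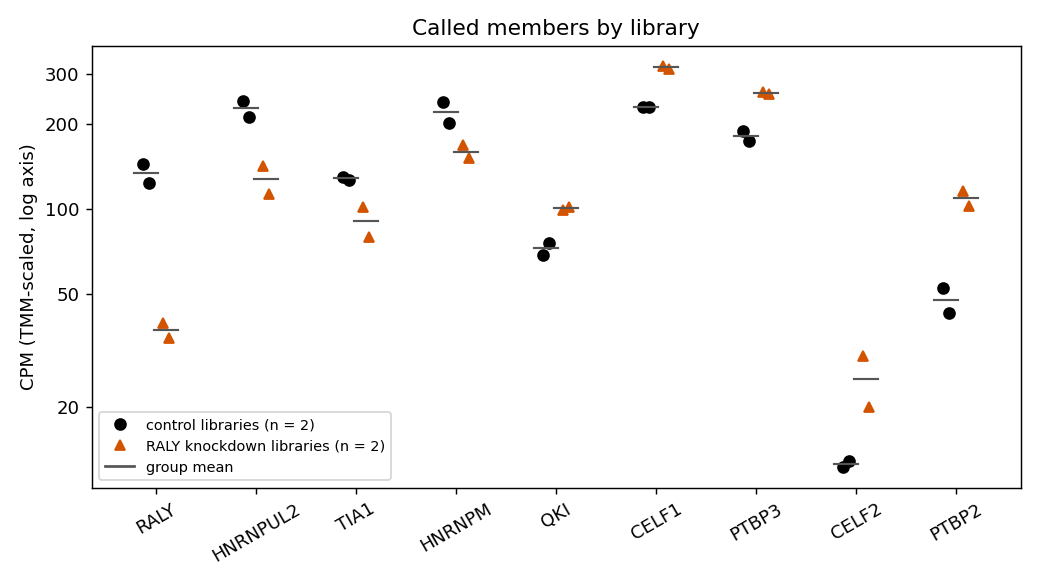
CPM (log axis) of the 9 called genes in each control library (circles) and each RALY knockdown library (triangles), with the group means as lines, ordered by fold change. In each gene the 2 groups do not overlap, which also held for 63.6% of all tested genes. The 2 knockdown libraries stand farthest apart in CELF2, at 30.3 and 20.1 CPM.

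Among the 12 tissue regulators, 3 rose and 1 fell, or 33.3%, against 25.6% of all tested genes (12.5% higher, 13.1% lower). The share called differed with level, from 6.17% to 36.4% among tested genes with a mean of at least 500 counts (below). The 33.3% is therefore not read as an excess. CELF1, which binds GU-rich elements and promotes decay of messages that carry them, rose from 3010 and 3940 to 5114 and 4636 counts. Its controls were 228 ± 0.152 CPM and its knockdown libraries 315 ± 5.17 CPM (log2 change 0.47, SE 0.12, adjusted p = 0.0145 with edgeR). CELF2, its paralog in brain, heart and lymphocytes, was the lowest of the 40 genes per base, with 162 and 223 counts in control libraries, against 485 and 299 after knockdown. It rose from 12.6 ± 0.44 to 25.2 ± 7.18 CPM (log2 change 0.9999, SE 0.22, adjusted p = 0.00571 with edgeR), and without knockdown replicate 1 the log2 fold change was 0.65. QKI, a STAR family protein that acts in glia and in the epithelial to mesenchymal transition, rose from 911 and 1316 to 1594 and 1509 counts. Its CPM were 72.6 ± 5.01 and 100.5 ± 1.43 (log2 change 0.47, SE 0.11, adjusted p = 0.00978 with edgeR).

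TIA1, a protein of stress granules that helps U1 snRNP to bind weak 5′ splice sites followed by uridines, fell. It stood at 1709 and 2190 counts in control libraries, against 1630 and 1183 after knockdown, or 128 ± 2.01 and 90.6 ± 15.7 CPM (log2 change -0.50, SE 0.13, adjusted p = 0.0138 with edgeR). TIAL1, its paralog, stood at 2685 and 3313 counts in control libraries, against 3236 and 3022 after knockdown and was not called (log2 change 0.04, SE 0.12, adjusted p = 0.859 with edgeR). Per base, TIA1 stood at 0.709 and 0.736 of TIAL1 in the controls and at 0.561 and 0.436 in the knockdown.

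The muscleblind proteins, which promote adult splice patterns in muscle and brain, gave no call with all 4 libraries. MBNL1 stood at 2749 and 3363 counts in control libraries, against 4234 and 3611 after knockdown. Both knockdown libraries were above both controls on the CPM scale, but the groups did not overlap in 63.6% of all tested genes. The adjusted p was above the threshold (log2 change 0.33, SE 0.12, adjusted p = 0.0626 with edgeR). With 1 library left out the log2 change of MBNL1 was 0.25 to 0.39. MBNL2 and MBNL3 had log2 fold changes of 0.33 and 0.17. In MBNL3 the knockdown libraries disagreed, with 100.1 and 69.1 CPM on either side of the controls at 74.0 and 76.8 CPM. RBFOX2, which binds UGCAUG and acts on epithelial and mesenchymal exons, ELAVL1, which stabilises AU-rich messages, and KHDRBS1 and KHDRBS3, STAR proteins that link signalling to splicing, were not called, with log2 fold changes between -0.10 and 0.24.

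The remaining hnRNP groups gave no call. The A/B and D types, of which HNRNPA1 and HNRNPA2B1 repress exons through UAG-rich sites and HNRNPD acts on AU-rich messages, had 7 members with log2 fold changes between -0.17 and 0.10. HNRNPA0, the lowest of them per base, stood at 2522 and 2901 counts in control libraries, against 2566 and 2371 after knockdown (log2 change -0.17, SE 0.12, adjusted p = 0.325 with edgeR). HNRNPA3 was the highest per base of gene length (HNRNPA2B1 per base of the canonical transcript), with a log2 fold change of -0.06. The F/H types, which bind G runs, had 4 members between -0.03 and 0.13, with HNRNPF at 0.03, HNRNPH3 at -0.02 and HNRNPH1 at 0.13 with the smallest p (edgeR adjusted p = 0.559). Per base of gene length HNRNPF was the highest of the 4 and HNRNPH3 the lowest, and per base of the canonical transcript these were HNRNPH1 and HNRNPH2. The poly(C)-binding KH proteins HNRNPK, PCBP1 and PCBP2 had log2 fold changes of -0.01, 0.05 and 0.18. PCBP2 stood at 2843 and 3363 counts in control libraries, against 3749 and 3430 after knockdown (SE 0.12, adjusted p = 0.298 with edgeR).

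HNRNPU, which organises chromatin and acts on U2 snRNP maturation, had the most counts, 6598 and 7865 in control libraries and 8283 and 7598 after knockdown, and was not called (log2 change 0.11, SE 0.14, adjusted p = 0.625 with edgeR). RBMX, an X-linked relative of the Y-linked RBMY genes with parts in splicing and DNA repair, stood at 3221 and 3276 counts in control libraries, against 4491 and 4014 after knockdown. Both knockdown libraries were above both controls, with 217 ± 38.6 against 275 ± 7.26 CPM, but the groups did not overlap in 63.6% of all tested genes. RBMX was not called (log2 change 0.34, SE 0.14, adjusted p = 0.0904 with edgeR). With counts corrected for levelling off RBMX was called (log2 fold change 1.19, edgeR adjusted p = 0.00145), a value set in part by the limit of the correction, which both knockdown libraries reached. RBMXL1, a retrocopy of RBMX that may share reads with it, stood at 671 and 773 counts in control libraries, against 1225 and 1066 after knockdown and rose (log2 change 0.63, SE 0.12, adjusted p = 0.00315 with edgeR).

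Levels per base ran from 0.0266 counts for CELF2 to 1.03 for PCBP1, with a median of 0.452 over the 40 genes and 0.118 over all tested genes. The gene lengths in the deposited tables join all annotated exons. Per base of the canonical transcript the median was 0.846, HNRNPH1 was highest at 2.37 and CELF2 lowest at 0.0311. HNRNPH1 stood at 0.560 per base of gene length, and HNRNPU moved from 0.337 to 1.10 counts per base between these scales. Levels of neighbours in the order are close: PTBP1, SYNCRIP and HNRNPDL lay between 0.588 and 0.623 per base of gene length, less than the spread of PTBP1 alone over the 4 libraries, 0.521 to 0.642.

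Counts of the most abundant of these genes levelled off between the 2 control libraries, rising less than the library totals. Control replicate 2 held 1.26 times as many counts as control replicate 1 in total, so a gene that follows depth should have about that ratio. Occupancy is the mean count as a percentage of 2 counts per base of the canonical transcript. The 17 members with an occupancy over 50% had a median ratio of 1.10 between the controls (1.02 to 1.19), the 13 with 20 to 50% had 1.19, and the 10 at or under 20% had 1.37 (1.07 to 1.82). RBMX, at 93.2%, had 3276 against 3221 counts, a ratio of 1.02. The knockdown libraries were closer in total, with 16493967 and 14762755 counts. Between them the ratio of replicate 1 to replicate 2 ran from 1.0145 (KHDRBS1) to 1.202 (HNRNPH1) in these 17 members. HNRNPH1, with the highest occupancy, thus differed by more than the totals, while KHDRBS1 differed by less. The levelling off was read from the control pair, and the knockdown pair did not show it throughout. Fold changes of genes whose counts level off may be compressed.

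Calls followed the same classes. Of the 17 members with an occupancy over 50%, 1 was called (5.88%), of the 13 between 20 and 50%, 3 were called (23.1%), and of the 10 at or under 20%, 5 were called (50%). RALY, the targeted gene, is among these 5. Among all tested genes with a mean of at least 500 counts, the shares called in these classes were 6.17% of 811, 20.9% of 3638 and 36.4% of 4946. The median size of the log2 change was 0.08 for the members and 0.10 for those tested genes in the fullest class, 0.07 and 0.18 in the middle class, and 0.40 and 0.28 in the class at or under 20%. Where counts level off, a change of the message may not be detectable.

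**Figure D3:**
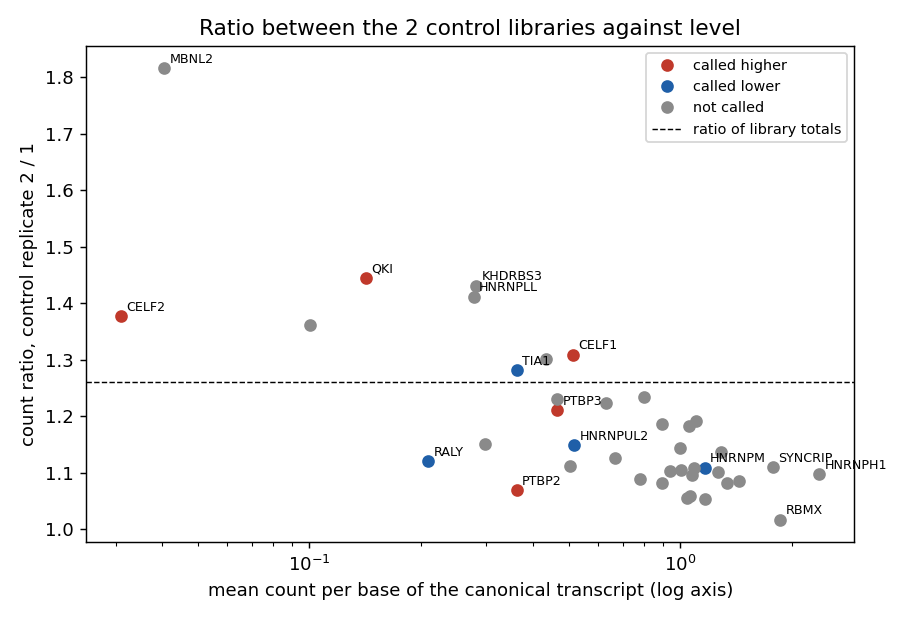
Count ratio of control replicate 2 to control replicate 1 (y axis) against the mean count per base of the canonical transcript (log x axis) for the 40 genes, with the ratio of the library totals, 1.26, as a dashed line. Genes with about 1 count per base or more lie below the line, down to 1.02 for RBMX, and most of those with few counts per base lie above it.

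The genes that rose had long spans and uridine-rich messages. The spans of the 5 were 99.6 to 538 kb, and those of the 4 that fell were 14.8 to 115 kb, with RALY the longest. Of the 10 members over 100 kb, 4 rose and 1 fell, of the 18 between 20 and 100 kb 1 rose and 2 fell, and of the 12 under 20 kb none rose and 1 fell. Among tested protein-coding genes, 17.7% of those over 100 kb rose and 13.04% fell, 13.5% of those between 20 and 100 kb rose and 15.7% fell, and 10.1% of those under 20 kb rose and 16.6% fell. Runs of at least 5 uridines, the kind of sequence that RALY and HNRNPC bind, were counted in the canonical transcripts of GENCODE release 44. The 5 genes that rose had 4.37 to 6.12 such runs per kb (median 5.42), the 4 that fell had 0.805 (RALY), 1.92 (HNRNPUL2), 2.02 (HNRNPM) and 4.75 (TIA1), and the 31 not called had a median of 3.12 with a range of 1.16 to 5.54.

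These runs are a description, with no test. Over tested protein-coding genes the medians were 2.13 runs per kb in those that rose, 0.996 in those that fell and 1.616 in those not called. Transcript lengths also differed, with medians of 8132 bases in the 5 members that rose, 4924 in the 4 that fell and 3206 in the 31 others. PTBP2 held 18 runs in 3321 bases, the longest of 21 uridines, and CELF2 held 53 in 9406 bases. HNRNPD and TIAL1, at 5.54 and 5.23 runs per kb, and HNRNPC, at 5.05, were not called, with log2 fold changes of -0.07, 0.04 and 0.06. Their occupancies were 50.1%, 40.0% and 58.4%, so a change of these messages may have been compressed. The part of the runs in the fold changes was not tested.

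**Figure D4:**
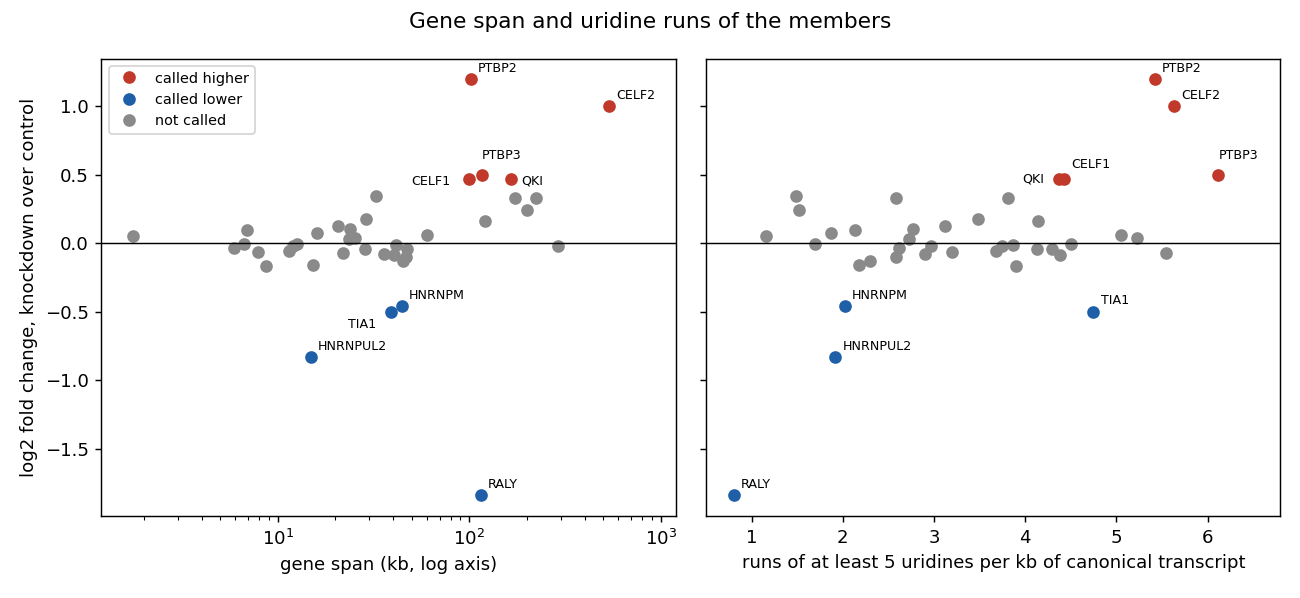
Log2 fold change (knockdown over control) of the 40 genes against gene span (left, log axis, kb) and against runs of at least 5 uridines per kb of canonical transcript (right). The 5 genes that rose lie at 99.6 kb or more and at 4.37 runs per kb or more, together with genes that were not called.

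The calls rested on the libraries to different degrees. RALY, PTBP2 and HNRNPUL2 were called with any 1 of the 4 libraries left out, with log2 fold changes of -1.96 to -1.76, 1.04 to 1.31 and -1.02 to -0.68. PTBP3, CELF1, CELF2, QKI, HNRNPM and TIA1 lost their call without control replicate 1 or without control replicate 2, where 4.79% (1.62% higher, 3.17% lower) and 4.82% (2.33% higher, 2.49% lower) of all tested genes were called. Their log2 fold changes in these fits were 0.52 and 0.43 for PTBP3, 0.43 and 0.45 for CELF1, 0.93 and 1.02 for CELF2, 0.36 and 0.53 for QKI, -0.37 and -0.59 for HNRNPM and -0.52 and -0.53 for TIA1. HNRNPM and TIA1 also lost their call without knockdown replicate 2 (log2 fold changes -0.39 and -0.34, adjusted p = 0.0718 and 0.0605 with edgeR). Of all tested genes, 30.7% (14.3% higher, 16.4% lower) were called without knockdown replicate 1 and 25.8% (12.8% higher, 13% lower) without knockdown replicate 2. KHDRBS3 was called in addition without knockdown replicate 1 and MBNL3 without knockdown replicate 2. None of the 9 changed direction in any of these fits. This could hardly come out otherwise, because the groups of each of the 9 did not overlap, and it adds no evidence. Against a minimum fold of 1.2 in either direction, RALY, PTBP2, HNRNPUL2 and CELF2 were called, with 15.7% of all tested genes (7.52% higher, 8.15% lower). The share of all tested genes called was 24.8% with DESeq2 size factors, 24.2% with plain totals, 21% with the DESeq2 Wald test, 17% without a filter, 27% with a filter of 1 CPM, 26.8% with saturation-corrected counts and 35.8% with the replicate number as a block.

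**Figure D5:**
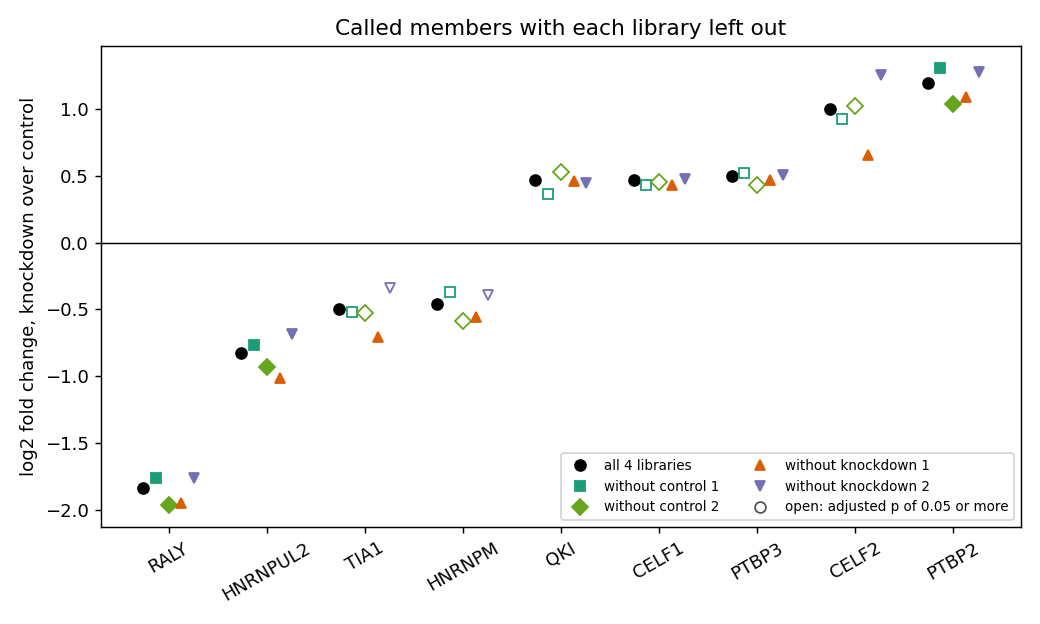
Log2 fold change of the 9 called genes with all 4 libraries and with each library left out, where open symbols mark an adjusted p of 0.05 or more. RALY, HNRNPUL2 and PTBP2 have filled symbols throughout. All symbols of a gene lie on the same side of 0, which groups without overlap all but require.

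Of 46 related regulators outside the list, 36 were tested, 4 rose and 3 fell, or 19.4% against 25.6% of all tested genes. RAVER1, a partner of PTBP1 in exon repression, had the smallest p, with 2314 and 2766 counts in control libraries, against 1238 and 933 after knockdown, or 168 ± 10.9 and 70.0 ± 10.25 CPM (log2 change -1.26, SE 0.13, adjusted p = 6.23e-05 with edgeR). It shares 38.1% of its exon bases with other genes, so its counts are uncertain. NOVA2, a regulator of neuronal exons that binds YCAY clusters, rose from 373 and 640 to 929 and 1173 counts (log2 change 1.06, SE 0.17, adjusted p = 0.00109 with edgeR). RBM20, which acts on titin exons in heart muscle, rose from 428 and 627 to 980 and 940 counts (log2 change 0.85, SE 0.13, adjusted p = 0.00074 with edgeR). CELF3, a neuronal CELF protein, stood at 1 and 4 counts in control libraries, against 24 and 30 after knockdown and was called as higher (edgeR adjusted p = 0.00149). PCBP3 fell from 126 and 147 to 45 and 48 counts (log2 fold change -1.58, SE 0.26), and RBM10, an inhibitor of exon inclusion, fell by 0.38 on the log2 scale.

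Calls among these regulators also depended on the controls: NOVA2 was not called without control replicate 1 (edgeR adjusted p = 0.0692), RBMXL1 without control replicate 2 (edgeR adjusted p = 0.0965), and CELF3 and RBM10 without either. RBM10 also lost its call without knockdown replicate 2 (edgeR adjusted p = 0.0561). ESRP1 and ESRP2, the epithelial splicing regulators, were not called (log2 fold changes -0.28 and 0.15, adjusted p = 0.114 and 0.333 with edgeR). NOVA1, ELAVL2, ELAVL4 and KHDRBS2 had no count in any library, which allows up to 0.174 to 0.227 CPM (3 counts). Of 7 neuronal markers 4 were tested and none was called, 1 of them at an unadjusted p under 0.05; ELAVL4 was at 0. Their summed level, most of it MAP2, was 83.1 and 112 CPM in the controls and 120 CPM in both knockdown libraries, and its part in the rise of PTBP2, CELF2 and NOVA2 was not tested. The 5 muscle markers summed to 8.11 and 13.3 CPM in control libraries and 9.42 and 11.0 CPM after knockdown, with MYOD1 at 0. The 5 fibroblast markers summed to 127 and 147 CPM in control and 102 and 132 CPM in knockdown libraries, nearly all of it COL1A1, and none was called, with 2 at an unadjusted p under 0.05. The 6 leukocyte markers summed to 37.1 and 33.3 CPM in control and 34.3 and 34.1 CPM in knockdown libraries, mostly CD68, and ITGAM rose (log2 change 1.24, SE 0.30, adjusted p = 0.0106 with edgeR). The part of these markers in the results was not tested.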

How the data were processed

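The authors deposited 1 table per library with raw counts of reads per gene in the featureCounts layout (per the file headers). The submitters' processing notes name HISAT2 2.0.4, SAMtools, featureCounts, Subread and GRCh38; strand and duplicate settings: not given in the sources used here. Symbols and canonical transcripts came from GENCODE release 44 (58472 of 58884 genes matched, 58458 at an overlapping place). Groups came from the sample titles.

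Genes were filtered with filterByExpr, scaled with TMM and tested with edgeR 4.0.16 (R 4.3.3), robust quasi-likelihood, a term for the group, Benjamini-Hochberg over 19686 genes. SE is the fold change divided by the root of F. A count of 3, the floor, is 0.174 to 0.227 CPM; floors cover counting error only. The script was tested on simulated data. Alternatives were other scalings and filters, DESeq2 1.42.0, a block for replicate number, leaving out each library, a minimum fold, and saturation-corrected counts (-2L ln(1 - c/2L) for count c and canonical length L, c limited to 98% of 2L).

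The genes and lists were chosen with earlier results of these data known. Named were RALY, HNRNPC, each called member, in each role group the highest and lowest per base of gene length and the uncalled member with the smallest p, up to 4 called related regulators in each direction, and RALYL; others were added after their values were seen.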

Additional observations from a re-analysis of the deposited data

How the results depend on the processing

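The 9 called members were all called with DESeq2 size factors, plain totals, the DESeq2 Wald test, no filter, at least 1 CPM in 2 libraries as filter, a replicate block and saturation-corrected counts. MBNL1 was added with plain totals, and RBMX and MBNL1 with the replicate block and with saturation-corrected counts. KHDRBS3 was added without knockdown replicate 1 and MBNL3 without knockdown replicate 2. The number of called members was 3 to 10 with 1 library left out (1 to 6 higher, 2 to 4 lower) and 4 against a minimum fold of 1.2 (2 higher, 2 lower). The number of called related regulators was 4 to 9 with 1 library left out (2 to 7 higher). A fit without 1 control takes its spread from the knockdown pair, whose counts were farther apart (chi-square over its degrees of freedom of 10.3, and 5.53 for the control pair).

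Replicate numbers were shared by the groups, but no label says that they mark a common batch; deviations of same-numbered libraries from their group means correlated at 0.219. With the replicate block, 11 members were called, 7054 genes in all against 5048, and 7 related regulators rose against 4. The median count per base was 0.846 with canonical in place of deposited lengths.

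Of 372 values for 31 named genes under 12 alternatives, 330 kept direction and side of the threshold and 10 turned, none in a called gene. The groups of each called gene did not overlap, so a turn there was hardly possible. HNRNPH1 was at -0.0579 with saturation-corrected counts, where all 4 libraries were at the limit. With 1 library left out, HNRNPC ran from -0.10 to 0.19, HNRNPA3 from -0.20 to 0.0520, HNRNPF from -0.10 to 0.12, HNRNPH3 from -0.15 to 0.0696 (0.0197 without knockdown replicate 2), HNRNPH1 from -0.0109 to 0.22, PCBP1 from -0.11 to 0.18, SYNCRIP from -0.21 to 0.0096 and HNRNPR from -0.21 to 0.0016 on the log2 scale.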

Other observations

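PCBP1 and PCBP2 did not pass the test and overlap neighbours that rose. PCBP1-AS1, a long noncoding RNA on the strand opposite PCBP1 (GRCh38 chromosome 2, 69962263 to 70103220), stood at 604 and 953 counts in control libraries, against 1724 and 1317 after knockdown (log2 change 0.96, SE 0.14, adjusted p = 0.000527 with edgeR). PCBP1 shares 52.2% of its exon bases with other genes, chiefly this one, and had a log2 fold change of 0.05. MAP3K12, a kinase gene of axon injury signalling on the strand opposite PCBP2, rose from 1032 and 1429 to 1601 and 1720 counts (log2 change 0.42, SE 0.12, adjusted p = 0.0194 with edgeR), and PCBP2 shares 32.7% of its exon bases with other genes. No source used here gives the strand setting of the counting, so reads of such partners cannot be told apart.

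Retrocopies also held counts. The 74 annotated HNRNPA1 pseudogenes summed to 735 and 989 counts in control libraries, against 940 and 1160 after knockdown, 24.1% of the HNRNPA1 counts over the 4 libraries. The 16 HNRNPA3 copies held 7.95% and the 9 HNRNPC copies 7.07% of the counts of their parents. PTBP2, PTBP3, CELF1, CELF2, QKI, TIA1 and HNRNPUL2 had no annotated pseudogene of their name in the tables.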
